A study of Homo sapiens with 12 samples.

Results

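The early transcriptional response of a myeloid cell line to the leukemia fusion PML-RARA was measured by comparing cells that carried either form of the fusion with cells that carried GFP alone, 6 h after the plasmids were introduced. The comparison uses 6 of the 12 arrays of the study, 4 from fusion cells and 2 from GFP cells, taken by construct and time in the sample titles with no use of measured values. U937, a human line of monocytic cells first grown from a histiocytic lymphoma, was electroporated with pEGFP (control GFP), pEGFP-PRWT (wild type PML-RARA) or pEGFP-PR2VR, and GFP-positive cells were sorted before RNA was extracted. Each construct has 2 arrays at 6 h, numbered 1 and 2 in the titles, and the same constructs were measured again at 9 h. The study's title names a protease-resistant fusion, here read as PR2VR, although the sample labels of PR2VR also describe wild type cDNA. The titles of fusion samples count hours from infection and those of GFP samples hours from transfection, so any difference in procedure behind those words cannot be told apart from the construct. All groups share the electroporation, the GFP backbone and the sort. The fusion was expressed for hours from a plasmid in a line that is not a promyelocytic leukemia, and the labels do not say whether numbers 1 and 2 were separate transfections. The p-values therefore reflect only the spread between arrays of the same construct and time, pooled over all 12 arrays, and that spread may be technical.

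PML-RARA joins PML, the organizer of nuclear bodies, to the retinoic acid receptor alpha, RARA. It is the defining oncoprotein of acute promyelocytic leukemia, where it binds retinoic acid response elements and other sites together with RXR and recruits corepressors, holds myeloid cells at the promyelocyte stage and disperses the nuclear bodies. PML is itself induced by interferons and takes part in antiviral and cell death responses, and retinoic acid releases the differentiation block.

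The values are MAS5 signals, which were already scaled to a trimmed mean of 1500.2 on each array. The 6 arrays of 6 h had median signals of 238.8 to 292.4, and 58.2% to 63.4% of their probe sets exceeded 168.9. The GAPDH signal at the 3' end over that at the 5' end, which grows as RNA degrades, was 5.27 and 4.79 on the GFP arrays and 3.82 to 8.28 on the fusion arrays. The same ratio for actin was 23.8 and 18.9 on the GFP arrays and 12.5 to 56.9 on the fusion arrays, highest on PR2VR number 2, whose GAPDH ratio was the lowest. PR2VR number 1 stood apart, with a first principal component score of 74.6 against -34.8 to 19.5 for the other 5, and a mean correlation with them of 0.913 against 0.934 to 0.943. The 15 Bacillus control probe sets, which have no target in human RNA, read 4.9 to 297.9 with a median of 49.2, and signals within that range are imprecise. Differences are given as log2(signal + 62.5), averaged over the 4 fusion arrays minus the 2 GFP arrays, with the standard error (SE) of a limma fit to 1 probe set per gene for 13959 genes. A gene passed where its Benjamini-Hochberg adjusted p was under 0.05.

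RARA was the gene that passed. Its strongest probe set read 63.4 and 48.2 in GFP cells, 58985 and 11971 in PRWT cells and 36892 and 9281 in PR2VR cells. All 4 fusion arrays lay far above both GFP arrays, which were within the range of the Bacillus controls. RARA rose by 7.56 ± 0.67 on the log2 scale (SE, 4 against 2 arrays, adjusted p = 0.000536 in limma), and leaving out each of the 6 arrays in turn gave 6.98 to 8.13. The rise was 7.82 ± 0.77 in PRWT cells (adjusted p = 0.00197) and 7.30 ± 0.77 in PR2VR cells (adjusted p = 0.00439). These calls for single forms ended without either GFP array or without number 1 of that form (adjusted p = 0.0501 to 0.0752 for PRWT and 0.118 to 0.193 for PR2VR), at differences of 6.67 to 7.91 and 6.31 to 7.39. Within a construct the signal of number 1 was higher than that of number 2, by 58985 against 11971 in PRWT and 36892 against 9281 in PR2VR. PR2VR differed from PRWT by -0.52 ± 0.77 (95% confidence interval -2.18 to 1.14, adjusted p = 0.999 in limma). The difference was 0.63 without PRWT number 1 and 0.47 without PR2VR number 2. A difference between the forms in the signal of this probe set was therefore not detectable with 2 arrays each. The plasmids of both forms carry RARA as part of the fusion. Whether this signal comes from the plasmid or from the cell's own RARA gene was not tested.

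Other probe sets of the fused genes gave a mixed picture. A second RARA probe set read 671 and 624 in GFP cells, 6793 and 5166 in PRWT cells and 5934 and 4409 in PR2VR cells, with no overlap and a difference of 2.97. When all 25878 probe sets above the signal limit were fitted with the replicate number as a block, this probe set passed (adjusted p = 0.0156 in limma), and without the block it did not (adjusted p = 0.0689). Another RARA probe set read 1761 and 1213 in GFP cells against 1156 to 1508 in fusion cells, a difference of -0.16, and overlapped. For PML, 1 of 10 probe sets read 168 and 518 in GFP cells and 1601 to 3951 in fusion cells, a difference of 2.97 (adjusted p = 0.0892 with the block and 0.776 without it in limma). The strongest PML probe set by mean read 4082 and 4656 in GFP cells, 3111 and 5749.7 in PRWT cells and 5927 and 5983 in PR2VR cells and differed by 0.20 ± 0.34, and the sign turned to -0.02 without PRWT number 2. Which of these probe sets match the plasmid inserts was not tested.

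Over the 13959 genes tested, RARA alone passed in limma (0.00716% of the genes), with 255 genes at an unadjusted p under 0.05 (1.83%). With the replicate number as a block the count was again 1, with 786 genes at an unadjusted p under 0.05 (5.63%). The count depended on the PR2VR arrays. With the block, 18 genes passed without PR2VR number 1 (11 higher, 0.0788%, and 7 lower, 0.0501%) and 376 passed without PR2VR number 2 (67 higher, 0.48%, and 309 lower, 2.21%). PR2VR number 2 had a 3' to 5' ratio for actin of 56.9, against 12.5 to 27.5 on the other 5 arrays, and its part in this rise was not tested. Genes that came up in both omissions are described by their differences only. These were ARID5B, CD36, EVI2B, IRS2, KLF6, RARA, SGK1 and TCF7L2 on the higher side and IFNL1, IL4I1, MS4A4A, PIM1 and TUBB3 on the lower. Without PR2VR number 1 and without number 2, ARID5B differed by 1.815 and 2.257 and PIM1 by -1.482 and -1.52. SGK1, a kinase of insulin and glucocorticoid signalling (1.22 ± 0.52 over all arrays), TCF7L2, a factor of the Wnt pathway (1.05 ± 0.41), and TUBB3, a tubulin (-1.11 ± 0.40), are named after their values were seen. The omissions overlap in 4 of the 6 arrays, so the same direction in both is not 2 independent findings. The 4 fusion arrays all lay above both GFP arrays for 664 genes (4.76%) and all below for 596 (4.27%), and 171 (1.23%) and 112 (0.802%) of the tested genes did so with a difference of at least 1 on the log2 scale. The accounts that follow describe such genes by their array values, and in this fit of both forms every one of them other than RARA had an adjusted p of 1.0 without the block and of 0.177 or more with it.

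**Figure D1:**
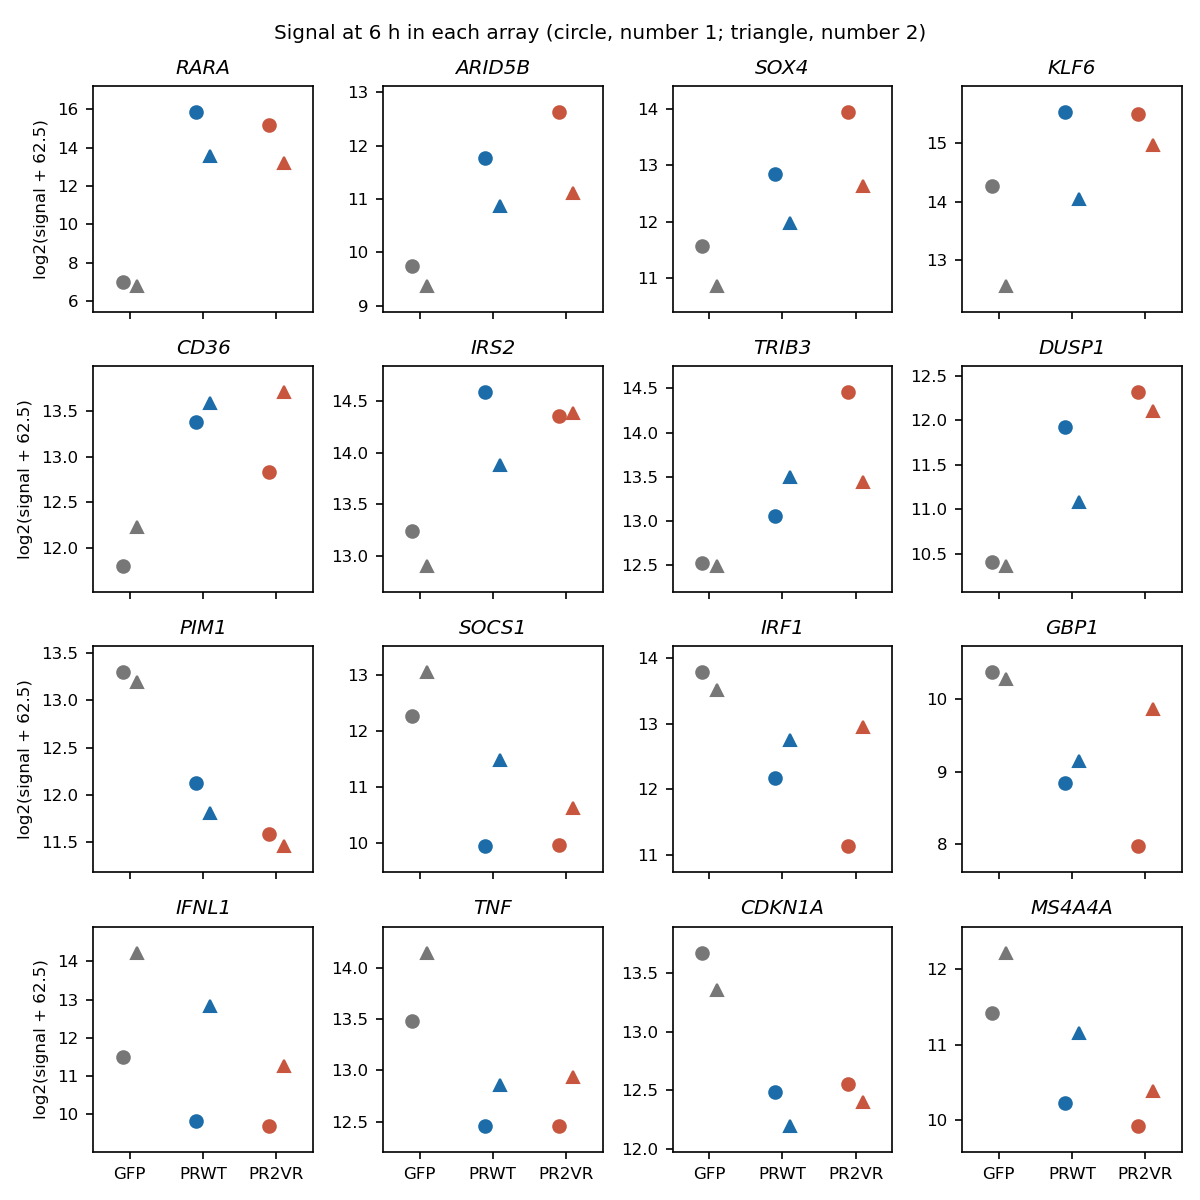
Log2(signal + 62.5) of 16 genes on each of the 6 arrays of 6 h, by construct (grey, GFP; blue, PRWT; red, PR2VR), with circles for number 1 and triangles for number 2 and a separate vertical scale for each gene. RARA separated widely, whereas for KLF6 the PRWT number 2 array lay below the GFP number 1 array and for IFNL1 the PRWT number 2 array lay above the GFP number 1 array.

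Several transcription factors and signalling genes were higher in every fusion array. ARID5B, a DNA-binding cofactor of a histone demethylase, read 798 and 602 in GFP cells, 3429 and 1818 in PRWT cells and 6288 and 2154 in PR2VR cells. The lowest fusion array was over the highest GFP array, and the difference was 2.04 ± 0.46 (adjusted p = 1.0 in limma, and 0.177 with the block). SOX4, a factor of progenitor and leukemic cells, read 2979.8 and 1796 in GFP cells, 7336 and 3948 in PRWT cells and 15759 and 6282 in PR2VR cells, and differed by 1.64 ± 0.53. In both genes PR2VR number 1 was the highest array. KLF6, a zinc finger factor, read 19786 and 5969.5 in GFP cells, 47416 and 16760.3 in PRWT cells and 46509 and 31909 in PR2VR cells. These overlap, because GFP number 1 exceeded PRWT number 2, yet each fusion array exceeded the GFP array of its own number, and the difference was 1.59 ± 0.57. Another KLF6 probe set rose by 1.94 in the fit of all probe sets with the block (adjusted p = 0.0255 in limma) and did not pass without it (adjusted p = 0.301), and its 3 others differed by 0.44 to 1.48.

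Membrane and adaptor genes of hematopoietic cells showed the same arrangement. CD36, a scavenger receptor of monocytes, read 3522 and 4733 in GFP cells, 10538 and 12221 in PRWT cells and 7218 and 13254 in PR2VR cells, and differed by 1.35 ± 0.36 with no overlap. Its 3 other probe sets above the signal limit differed by 1.20 to 1.64. CYTIP, which regulates integrin adhesion through cytohesins, read 1479 and 921 in GFP cells, 4844 and 2393 in PRWT cells and 4669 and 2482 in PR2VR cells (1.49 ± 0.40). EVI2B, a membrane protein of myeloid cells, read 1881 and 963 in GFP cells, 3324 and 2342 in PRWT cells and 5446 and 4091 in PR2VR cells (1.39 ± 0.37). Phospholipase D1, PLD1, which makes phosphatidic acid, read 948 and 977 in GFP cells, 2304 and 2008 in PRWT cells and 3818 and 2717 in PR2VR cells (1.39 ± 0.33), and its 5 other probe sets above the limit all differed upwards, by 0.18 to 0.95. None of the fusion arrays of CYTIP, EVI2B or PLD1 reached down to a GFP array. The stress phosphatase gene DUSP1 read 1294 and 1252 in GFP cells, 3806 and 2108 in PRWT cells and 5026 and 4333 in PR2VR cells (1.47 ± 0.36), but its second probe set differed by -0.35, so it is uncertain. FOS, an AP-1 subunit, read 1274 and 934 in GFP cells, 1943 and 2362 in PRWT cells and 2738 and 3393 in PR2VR cells (1.18 ± 0.37).

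Besides RARA, 14 genes are named for the smallest unadjusted p among those that were higher in every fusion array by at least 1. Of these 14, 7 were near the floor of the array in GFP cells, as RARA was. LINC01723, a non-coding RNA, read 59 and 68.1 in GFP cells, 365 and 609 in PRWT cells and 506 and 285 in PR2VR cells (1.95 ± 0.47). ADCYAP1R1, the receptor of the neuropeptide PACAP, read 26.4 and 26.7 in GFP cells, 236 and 366 in PRWT cells and 266 and 315 in PR2VR cells (1.99 ± 0.49). C1RL, a complement C1r-like protease, read 84.5 and 48.5 in GFP cells, 435 and 408 in PRWT cells and 649.9 and 422 in PR2VR cells (2.06 ± 0.43). The GFP arrays of all these genes lay within the range of the Bacillus controls. Likewise the matrix metalloprotease gene MMP10 (1.59 ± 0.42), the junction protein gene PLEKHA7 (1.71 ± 0.48), ODF4 (2.09 ± 0.60) and CIAO3, of cytosolic iron-sulfur assembly (2.03 ± 0.54), had GFP signals of 47.4 to 259.8. At 9 h these 7 genes differed from GFP by -0.34 to 0.48, so none of them differed by 1 there. COL21A1, a collagen gene with GFP signals of 122 and 303, differed by 1.81 ± 0.52 at 6 h and by 1.68 at 9 h.

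On the lower side PIM1 had the smallest unadjusted p. PIM1, a survival kinase induced by cytokines through STAT factors, read 9995 and 9309.8 in GFP cells, 4397 and 3526 in PRWT cells and 3016 and 2748 in PR2VR cells. All fusion arrays, at 2748 to 4397, were below both GFP arrays, and the difference was -1.5 ± 0.33 (adjusted p = 1.0 in limma, and 0.177 with the block). SOCS1, the inhibitor of JAK kinases that interferons induce, read 4894 and 8415 in GFP cells, 922 and 2792 in PRWT cells and 934 and 1519 in PR2VR cells, and differed by -2.16 ± 0.53 with no overlap. Of its 3 other probe sets, 2 differed downwards (-1.80 and -0.11) and 1, with GFP signals of 8.9 and 11.6, differed by 1.51, so its size is uncertain. SLC23A2, a vitamin C transporter, read 4805 and 4588 in GFP cells, 2035 and 2006 in PRWT cells and 1176 and 2088 in PR2VR cells (-1.37 ± 0.33), and its 2 other probe sets above the limit differed by -1.01 and -1.12. CDKN1A, the p21 inhibitor of cyclin-dependent kinases, read 13015 and 10439 in GFP cells, 5656 and 4617 in PRWT cells and 5947 and 5332 in PR2VR cells (-1.11 ± 0.31). For CDKN1A the 4 fusion arrays spanned 4617 to 5947, a narrow range next to the distance from GFP.

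Other genes that were lower in every fusion array have varied roles. BIN1, a membrane-bending protein, read 8094 and 11583 in GFP cells, 3499 and 6783 in PRWT cells and 3807 and 4426 in PR2VR cells (-1.10 ± 0.35), and its 4 other probe sets differed by -0.80 to -1.30. NEDD9, an adhesion scaffold, differed by -1.28 ± 0.41, but its 4 other probe sets differed by -0.17, -0.13, -1.08 and -0.34, so its size is uncertain. TPCN2, a lysosomal calcium channel, differed by -1.05 ± 0.34, where 1 of 4 other probe sets differed by 0.13. IGFBP6, which binds insulin-like growth factors, read 675 and 1970.3 in GFP cells, 377 and 489 in PRWT cells and 227 and 486 in PR2VR cells (-1.47 ± 0.49). SMOC2 (-1.61 ± 0.53) and GPRC5D (-1.68 ± 0.57) had most or all of their fusion signals within the Bacillus range, and GVINP1 differed by -1.06 ± 0.34. The phosphodiesterase gene PDE4B (-1.45 ± 0.44) and MDGA1 (-1.35 ± 0.37) are uncertain, since another probe set of each differed by 0.62 and 0.81. IGHG1 (-2.25 ± 0.60) is uncertain because immunoglobulin genes have near-identical copies.

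Interferon genes and their targets lay below GFP more often than above it, and no member passed. Interferons signal through JAK kinases and STAT factors and induce antiviral effectors, and transfected DNA can induce them. All 6 samples had received plasmid DNA. Among ligands, IFNL1, interferon lambda 1, read 2834 and 19089.8 in GFP cells, 846 and 7158 in PRWT cells and 762 and 2393 in PR2VR cells. The GFP arrays differed widely from each other, and GFP number 1 lay below PRWT number 2, but each fusion array was below the GFP array of its own number, and the difference was -1.96 ± 0.82 (adjusted p = 1.0 in limma, and 0.177 with the block). IFNB1, interferon beta, named after its values were seen, read 7301 and 22569 in GFP cells, 4744 and 52293 in PRWT cells and 620.3 and 29223 in PR2VR cells and differed by -0.62 ± 1.16, with overlap. Of the receptor and signalling genes, IFNAR2, a chain of the type I receptor, read 10738 and 10341 in GFP cells, 4444 and 4282 in PRWT cells and 7402 and 5979 in PR2VR cells (-0.96 ± 0.39), and JAK2 differed by -0.91 ± 0.42 with overlap. IRF1, a transcription factor of the interferon response, read 14017 and 11605 in GFP cells, 4534 and 6827 in PRWT cells and 2177 and 7876 in PR2VR cells (-1.40 ± 0.54). PR2VR number 1 was the lowest IRF1 array, and both GFP arrays were above all fusion arrays. Over the 22 tested genes for interferons, receptors and signalling factors, the median difference was -0.45, with 16 below 0 and 6 above. All 4 fusion arrays lay below both GFP arrays for 4 of the 22 (18.2%, against 4.27% of all genes) and above for 0. The median was -0.67 without GFP number 1 and -0.26 without PR2VR number 1.

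The 39 tested interferon-stimulated genes had a median difference of -0.51, against 0.00 for all genes tested, with 33 below 0 and 6 above (49.6% and 50.4% of all genes). Of the 39, 20 (51.3%) were below the GFP array of the same number in all 4 fusion arrays, against 9.11% of all genes, and 0 were above in all 4 (10.7% of all genes). The 4 pairs share the 2 GFP arrays and the members share their regulators, so they are not independent, and no test was made of the list. Only GBP1, an interferon-induced GTPase, separated without overlap, 1 of 39 (2.56%) against 4.27% of all genes. It read 1252 and 1176 in GFP cells, 397 and 505 in PRWT cells and 189 and 864 in PR2VR cells (-1.36 ± 0.52). Its 2 other probe sets above the signal limit differed by -0.73 and -0.67 and overlapped, so its size and separation are uncertain. RTP4, which restrains antiviral signalling, read 519.9 and 1136 in GFP cells, 71.7 and 499.7 in PRWT cells and 50.8 and 621 in PR2VR cells (-1.60 ± 0.76), with the 2 number 1 fusion arrays within the Bacillus range. ISG20, an exonuclease, read 11638 and 18993 in GFP cells, 5643 and 13662 in PRWT cells and 3411 and 11633 in PR2VR cells (-0.99 ± 0.56), with PRWT number 2 above GFP number 1. GBP5 differed by -1.19 ± 0.64, with PR2VR number 2 above GFP number 2. IFITM3, which blocks viral entry, differed the other way, by 0.73 ± 0.42, with PR2VR number 1 below both GFP arrays.

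The size of this shift rested on single arrays. The list's median was -1.01 without PR2VR number 2, -0.95 without GFP number 1 and -0.71 without PRWT number 2, but -0.29 without PRWT number 1, -0.09 without PR2VR number 1 and -0.09 without GFP number 2. By pair, the median was -0.26 for PRWT number 1, -0.90 for PR2VR number 1, -0.34 for PRWT number 2 and -0.30 for PR2VR number 2. All 4 were below 0, and PR2VR number 1, the array that stood apart, was the lowest. Calls for this list without 1 PR2VR array are not given, since the array left is fitted exactly. Sensors of cytosolic nucleic acids, which detect foreign DNA and RNA and are themselves interferon-induced, had a median of -0.18 over 14 genes, and of -0.10 to -0.36 with single arrays left out (PR2VR number 1 and GFP number 2). AIM2, the DNA sensor of an inflammasome, read 21376 and 17535 in GFP cells, 11029 and 12726 in PRWT cells and 9391 and 15240.4 in PR2VR cells (-0.70 ± 0.32), with no overlap. The RNA sensor IFIH1 (-0.80 ± 0.44) and its regulator DHX58 (-1.23 ± 0.84) overlapped, although each fusion array was below its own GFP array.

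Promoters of some genes described so far are shown, each with a match to an interferon response element, and all of those shown lay below GFP. Not every member of the interferon-stimulated list has a match, and IFITM3, which lay above GFP, has 2 matches. RefSeq promoters (GRCh38.p14, 250 bases before to 50 after the gene start) were found for 153 of the 179 named genes, and 31 of the 39 interferon-stimulated genes. The element searched for is GAAA followed, after any 2 bases, by GAAA. On either strand it occurred in 22 of the 31 (71.0%), in 3 of 18 promoters of the interferon and signalling list (16.7%), in 4 of 10 of the sensors and in 3.65% of all 27305 promoters. The motif's matches can overlap each other. Windows on the gene's strand, 5' to 3', have the match in capitals (it reads TTTC, any 2 bases, TTTC where the match is on the reverse strand) and end before the gene start:
SOCS1 (chr16:11256268-11256357, - strand): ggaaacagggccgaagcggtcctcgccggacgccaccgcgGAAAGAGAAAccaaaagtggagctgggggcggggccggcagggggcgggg
GBP1 (chr1:89065286-89065375, - strand): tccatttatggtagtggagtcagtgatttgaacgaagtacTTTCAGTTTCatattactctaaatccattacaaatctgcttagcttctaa
RTP4 (chr3:187368303-187368384, + strand): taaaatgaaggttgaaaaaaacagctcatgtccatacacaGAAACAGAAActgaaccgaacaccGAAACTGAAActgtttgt
ISG20 (chr15:88638907-88638996, + strand): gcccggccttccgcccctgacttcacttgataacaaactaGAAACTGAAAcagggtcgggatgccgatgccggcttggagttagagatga
AIM2 (chr1:159076907-159076996, - strand): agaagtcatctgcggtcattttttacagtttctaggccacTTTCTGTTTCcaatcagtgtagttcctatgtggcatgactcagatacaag
IFNL1 (chr19:39296157-39296248, + strand): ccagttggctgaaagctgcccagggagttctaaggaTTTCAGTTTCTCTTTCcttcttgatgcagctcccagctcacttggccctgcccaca
In IFNL1 a pair of overlapping matches on the reverse strand forms 1 run. A match is a description of the letters in these windows and not of a bound site.

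**Figure D2:**
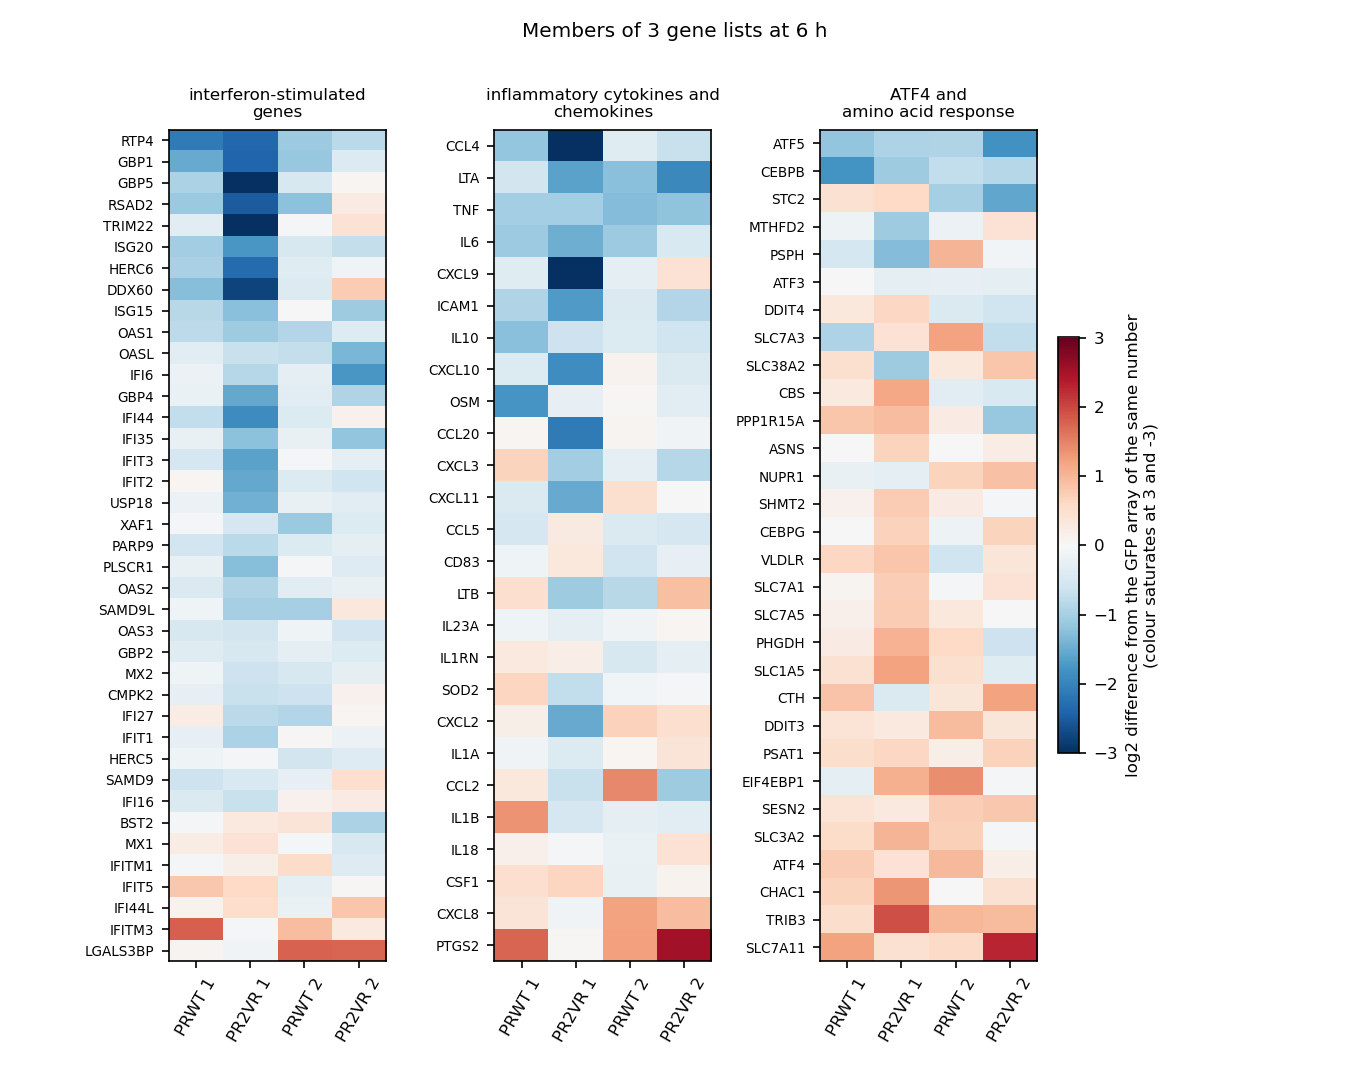
Log2 difference of each fusion array from the GFP array of the same number for the tested members of 3 gene lists, sorted by the fitted difference of both forms (blue, lower than GFP; red, higher; colour saturates at 3 and -3). In the interferon-stimulated list, with a median of -0.51, the PR2VR number 1 column is the darkest blue, and IFITM3 and LGALS3BP lie at the red end; in the ATF4 list the red end holds SLC7A11 and TRIB3.

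Inflammatory genes under NF-kB, the factor that drives cytokine genes in monocytes, were also more often lower than higher. Tumor necrosis factor, TNF, read 11382 and 18109.8 in GFP cells, 5544 and 7348 in PRWT cells and 5556 and 7788 in PR2VR cells. All fusion arrays were below both GFP arrays, the difference was -1.14 ± 0.37, and it was -0.23 at 9 h. The adhesion molecule ICAM1 read 2524 and 2699 in GFP cells, 1319.6 and 1996 in PRWT cells and 729 and 1434 in PR2VR cells (-0.98 ± 0.36), with no overlap. IL6 differed by -1.03 ± 0.56 and LTA by -1.33 ± 0.64, both with overlap but with each fusion array below its own GFP array. PTGS2, the inducible prostaglandin synthase, lay the other way and read 906 and 478 in GFP cells, 3179.8 and 1198 in PRWT cells and 930.2 and 3051 in PR2VR cells (1.38 ± 0.52), with PR2VR number 1 just above the higher GFP array. Over 26 cytokines and chemokines the median was -0.23, with 20 below 0 and 6 above, and 3 (11.5%) were below without overlap, against 4.27% of all genes. The median was -0.05 without PR2VR number 1 and -0.43 without PR2VR number 2. Over 17 NF-kB factors and inhibitors the median was -0.37, 13 were below 0 and 5 (29.4%) were below in all 4 pairs, against 9.11% of all genes. Only 1 of the 17 (5.88%) was below without overlap, near the 4.27% of all genes. NFKBIA, the inhibitor that NF-kB itself induces, read 12568 and 15349.6 in GFP cells, 7471 and 12881 in PRWT cells and 7306 and 10344 in PR2VR cells (-0.59 ± 0.37), with overlap, and TRAF1, a TNF receptor adaptor, read 632 and 1275 in GFP cells, 491 and 623 in PRWT cells and 611 and 529 in PR2VR cells (-0.63 ± 0.43).

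An NF-kB site, GGG followed after any 2 bases by TTTCC, was found on either strand in 5 of 14 promoters of the NF-kB list (35.7%), in 5 of 20 of the cytokine list (25.0%) and in 1.92% of all promoters. NFKBIA, the cytokine gene IL6 and TNFRSF9, a costimulatory receptor described next, are shown with the match in capitals (on the reverse strand it reads GGAAA, any 2 bases, CCC):
NFKBIA (chr14:35404781-35404870, - strand): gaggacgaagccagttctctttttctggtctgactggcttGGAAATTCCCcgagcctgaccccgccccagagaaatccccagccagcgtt
IL6 (chr7:22727087-22727176, + strand): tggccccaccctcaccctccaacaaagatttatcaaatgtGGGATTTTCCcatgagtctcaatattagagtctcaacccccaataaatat
TNFRSF9 (chr1:7940864-7940953, - strand): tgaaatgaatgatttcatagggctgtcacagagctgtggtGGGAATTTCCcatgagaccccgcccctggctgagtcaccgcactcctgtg

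Enzymes of amino acid breakdown and regulators of T cells, many of them interferon-induced, had a median of -0.33 over 15 genes, with 11 below 0. IL4I1, a secreted amino acid oxidase, read 1854 and 4710.3 in GFP cells, 515 and 2407 in PRWT cells and 363 and 838 in PR2VR cells, and differed by -1.82 ± 0.58 (adjusted p = 1.0 in limma, and 0.177 with the block). IDO1, which breaks down tryptophan, read 1126 and 1799 in GFP cells, 385 and 1146 in PRWT cells and 217 and 823 in PR2VR cells (-1.30 ± 0.53), and WARS1, the tryptophanyl-tRNA synthetase, read 36691 and 84736 in GFP cells, 17156 and 40394 in PRWT cells and 13918 and 41999.5 in PR2VR cells (-1.14 ± 0.50). In all 3 genes PRWT number 2 lay above GFP number 1, so the groups overlap, while each fusion array was below the GFP array of its own number. TNFRSF9 read 521 and 654 in GFP cells, 212 and 188 in PRWT cells and 161 and 334 in PR2VR cells (-1.21 ± 0.43), with no overlap. CD274, the PD-L1 ligand, differed by -1.0 ± 0.57, with PR2VR number 2 above both GFP arrays.

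Genes that retinoic acid induces in myeloid cells lay below GFP in 11 of 12 tested cases, with a median of -0.25. Of the 12, 5 (41.7%) were lower in all 4 pairs and 3 (25.0%) without overlap, against 9.11% and 4.27% of all genes. DHRS9, which oxidizes retinol and other substrates, read 16651 and 16604 in GFP cells, 7606 and 11354 in PRWT cells and 4272 and 16166 in PR2VR cells (-0.91 ± 0.44), so PR2VR number 2 was close to GFP and the other 3 fusion arrays were lower. CD38, a surface enzyme raised by retinoic acid in myeloid cells, read 999.6 and 2761 in GFP cells, 643 and 1838 in PRWT cells and 380.1 and 1529 in PR2VR cells (-0.81 ± 0.57), with overlap. CYP26A1, which degrades retinoic acid, had signals of 208 and 217 in GFP cells and 55.6 to 154 in fusion cells, all within the Bacillus range (-0.76 ± 0.60). ICAM1 belongs to this list as well. The median was -0.41 without GFP number 2. Direct repeats of GGTCA with 5 or 2 bases of any kind between them, which retinoic acid receptors can bind, occurred on either strand in 0 of 11 promoters of this list, and in 0.0696% and 0.125% of all promoters. At such low shares, 0 of 11 promoters cannot tell this list from other genes. Only these exact letters close to the gene start were searched, so the count says nothing on other elements. The 17 tested retinoid receptors, partners and corepressors had a median of 0.03 (-0.12 without GFP number 2 and -0.10 without PR2VR number 1), with RARA as the member that passed. RARA is also part of the fusion on the plasmids, and the source of its signal was not tested. RARG, retinoic acid receptor gamma, read 45.4 and 120.3 in GFP cells, 573 and 439 in PRWT cells and 245 and 91.1 in PR2VR cells (1.32 ± 0.52), with its GFP signals and 2 of its fusion signals within the Bacillus range. Another RARG probe set differed by -0.14, so RARG is uncertain. PML body components had a median of -0.13 over 9 genes, which was 0.11 without GFP number 1, 0.02 without PRWT number 2 and -0.39 without GFP number 2.

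On the higher side, genes that FOXO factors induce when insulin and growth factor signalling is low had a median of 0.33 over 20 genes, with 14 above 0. Of the 20, 8 were above in all 4 pairs and 5 (25.0%) without overlap, against 10.7% and 4.76% of all genes. IRS2, an adaptor of the insulin receptor, read 9628 and 7594 in GFP cells, 24538 and 15050.3 in PRWT cells and 20949 and 21322 in PR2VR cells, and differed by 1.23 ± 0.42 (adjusted p = 1.0 in limma, and 0.189 with the block). TSC22D3, the glucocorticoid-induced leucine zipper, read 14478 and 12948 in GFP cells, 25553 and 20299 in PRWT cells and 30467 and 31587 in PR2VR cells (0.95 ± 0.30). Both lay above GFP in every fusion array. TRIB1, a pseudokinase that sends C/EBP factors to degradation, read 7535 and 2968 in GFP cells, 11485 and 5834 in PRWT cells and 26056 and 13589.7 in PR2VR cells (1.38 ± 0.63), with overlap. KLF6 and ARID5B are in this list as well, and single omissions gave medians of 0.27 to 0.40. This list, like the others, was chosen with earlier results of these data known, so its shares support nothing independently.

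The ATF4 and amino acid response list, of genes that cells induce when amino acids or protein folding are limiting, had a median of 0.30 over 30 genes, with 22 above 0, 8 (26.7%) above in all 4 pairs and 4 (13.3%) above without overlap, against 10.7% and 4.76% of all genes. TRIB3, a pseudokinase target of ATF4, read 5823 and 5670.2 in GFP cells, 8452 and 11440.4 in PRWT cells and 22426 and 11072 in PR2VR cells (1.11 ± 0.40), with PR2VR number 1 the highest. SLC7A11, the cystine transporter, read 3883 and 3188 in GFP cells, 9095 and 4772 in PRWT cells and 5343 and 15694 in PR2VR cells (1.13 ± 0.44), with PR2VR number 2 the highest. ATF4, the factor itself, read 48719.8 and 59935 in GFP cells, 82675 and 117002 in PRWT cells and 65342 and 68479.6 in PR2VR cells (0.59 ± 0.28). These 3 genes separated from GFP, but the highest array differed among them. CEBPB, which the list also holds and which drives myeloid differentiation, lay the other way and read 25868 and 34105 in GFP cells, 7437 and 20393 in PRWT cells and 12336 and 18930.4 in PR2VR cells (-1.11 ± 0.47). The median was 0.16 without PR2VR number 1 and 0.44 without PR2VR number 2. The letters TGATGNAA, an element bound by ATF4 with C/EBP factors, were on either strand in 5 of 24 promoters of this list (20.8%) and in 3.67% of all.

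Progenitor and stem cell factors had a median of 0.36 over 13 genes, with 7 above 0 and 6 below, 6 (46.2%) above in all 4 pairs and 3 (23.1%) without overlap, against 10.7% and 4.76% of all genes. The median was 0.11 without either GFP array and 0.13 without PRWT number 2. Besides SOX4, this list holds MYB, a factor of immature blood cells, which read 14611 and 11199 in GFP cells, 24112 and 17390.4 in PRWT cells and 23185 and 17525 in PR2VR cells (0.66 ± 0.40). Markers of monocytes and macrophages lay in both directions, with a median of -0.09 over 21 genes (0.13 without GFP number 1). MS4A4A, a macrophage surface protein, read 2672 and 4724 in GFP cells, 1133 and 2208 in PRWT cells and 899.7 and 1267 in PR2VR cells (-1.41 ± 0.57), and AQP9, a glycerol channel, read 876 and 359 in GFP cells, 52.8 and 165 in PRWT cells and 193 and 190.3 in PR2VR cells (-1.63 ± 0.61), both below GFP in every fusion array, whereas CD36, described above, and the chemokine receptor CCR2 (0.80 ± 0.49) were above. Neutrophil granule proteins (median -0.05 over 14 genes, -0.23 to 0.19 with single arrays left out) and myeloid transcription factors (-0.07 over 17, -0.14 to 0.09) had no direction that held without each array.

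Genes of G2 and mitosis had a median of -0.17 over 26 genes, with 21 below 0 and 9 (34.6%) below in all 4 pairs, against 9.11% of all genes. TOP2A, the topoisomerase of dividing cells, read 16243 and 13149.5 in GFP cells, 9657 and 8276 in PRWT cells and 9516 and 7707 in PR2VR cells (-0.74 ± 0.38), and KIF23, of cytokinesis, differed by -0.89 ± 0.50. The 2 other TOP2A probe sets differed by -0.17 and -0.36, with overlap. DNA replication genes had a median of -0.05 over 28, which ran from -0.42 without GFP number 2 to 0.27 without PR2VR number 2. For p53 targets and CDK inhibitors it was -0.17 over 19, and 0.0035 without PRWT number 2. In the BCL2 family, with a median of -0.21 over 15 genes, the death activator HRK read 379 and 348 in GFP cells, 221 and 37.5 in PRWT cells and 172 and 11.7 in PR2VR cells (-1.51 ± 0.67), with 4 fusion signals within the Bacillus range. The signs of most other medians turned with 1 array. The median was 0.26 over 12 histones and 0.12 over 28 ribosomal proteins, and was -0.20 and -0.16 without GFP number 1 (ribosomal proteins also -0.07 without PRWT number 2). It was 0.13 over 16 heat shock chaperones, but -0.17 without GFP number 1 and -0.09 without PRWT number 2. It was 0.14 over 23 immediate early genes, but -0.14 without PR2VR number 2, and 0.10 over 15 tRNA synthetases, but -0.0076 without PR2VR number 1. It was -0.09 over 20 folding genes of the endoplasmic reticulum, but 0.07 without GFP number 2. With single arrays left out the medians ran from -0.06 to 0.11 for 16 genes of cholesterol synthesis (0.02 with all), from -0.10 to 0.28 for 27 of glycolysis and hypoxia (0.02) and from -0.03 to 0.10 for 23 of the TGF-beta and Notch pathways (0.01). Cytokine feedback and signalling inhibitors, which include SOCS1 on the lower side and DUSP1 on the higher, had 12 of 18 genes above 0 and a median of 0.11 (0.04 to 0.14). SLC2A3, a glucose transporter in the glycolysis list, read 2662 and 1169.8 in GFP cells, 6626 and 2337 in PRWT cells and 4850.2 and 3285 in PR2VR cells (1.14 ± 0.45), and was higher in all 4 pairs with overlap. Of the 29 lists, 16 had a median that turned sign when some 1 array was left out and 13 did not. By pair, 6 lists had medians below 0 in all 4 pairs and 5 above 0 in all 4.

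On the probe sets tested, further members of these lists separated from GFP with differences under 1 in size, whereas FGR overlapped. Other probe sets of KLF2 and CCNE2 differed by 0.21 and -0.06, with overlap. KLF2, a factor of quiescent leukocytes, read 673 and 473 in GFP cells, 694 and 1547 in PRWT cells and 1058 and 1524 in PR2VR cells (0.95 ± 0.44), and SMAD7, the inhibitor of TGF-beta receptors, read 2969 and 2944 in GFP cells, 4718 and 4439 in PRWT cells and 4777 and 4505 in PR2VR cells (0.63 ± 0.33). In SMAD7 both GFP arrays and all 4 fusion arrays lay close together within their groups. ADM, adrenomedullin, a peptide induced by low oxygen, read 2115 and 1592 in GFP cells, 4743 and 3724 in PRWT cells and 2538 and 2446 in PR2VR cells (0.80 ± 0.40), with the PRWT arrays above the PR2VR arrays. On the lower side, SPRY2, an inhibitor of receptor kinase signalling, read 19349 and 26886 in GFP cells, 13047 and 16851 in PRWT cells and 6835 and 19316 in PR2VR cells (-0.80 ± 0.41), with PR2VR number 2 just below GFP number 1. IER2, an immediate early gene, read 42879 and 59088 in GFP cells, 28011 and 34304 in PRWT cells and 39307 and 19013 in PR2VR cells (-0.79 ± 0.38), and PMAIP1, the death activator NOXA, read 76734 and 73345 in GFP cells, 58729.5 and 52989.9 in PRWT cells and 40809.6 and 68313 in PR2VR cells (-0.47 ± 0.29). Another PMAIP1 probe set differed by -0.49 and overlapped, with PR2VR number 2 above both GFP arrays. CCNE2, a cyclin of the G1 to S transition, read 4835 and 4484 in GFP cells, 2795 and 3461 in PRWT cells and 1898 and 3942 in PR2VR cells (-0.66 ± 0.46), below GFP in all fusion arrays, and at 9 h its difference was 0.01. FGR, a myeloid kinase of the SRC family, read 1764 and 997 in GFP cells, 510.3 and 415 in PRWT cells and 1054 and 677 in PR2VR cells (-1.01 ± 0.40), where PR2VR number 1 exceeded GFP number 2.

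**Figure D3:**
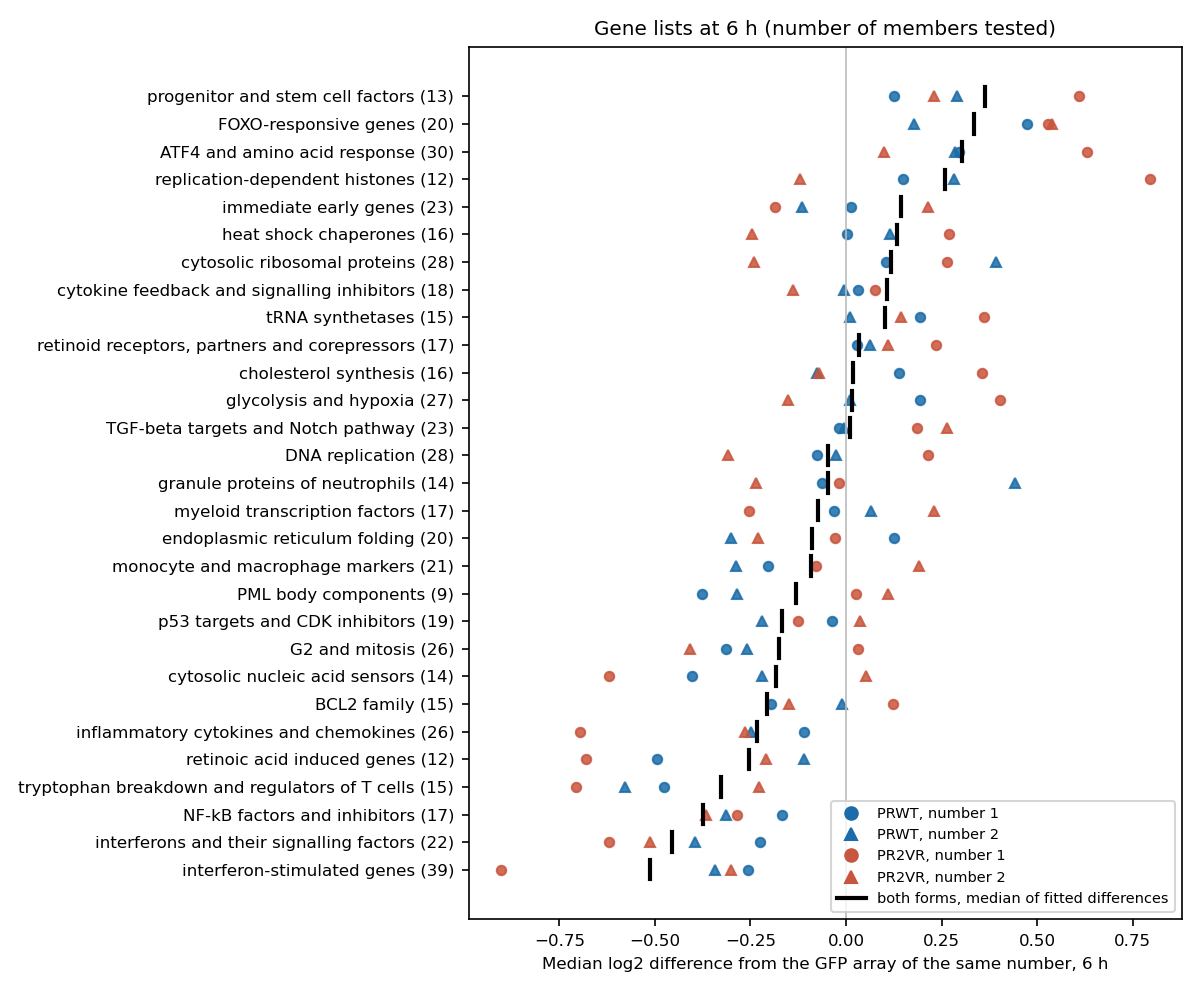
Median log2 difference from the GFP array of the same number for 29 gene lists, for each of the 4 fusion arrays (blue, PRWT; red, PR2VR; circles, number 1; triangles, number 2), with a black bar for the median of the fitted differences of both forms and the number of tested members in brackets. The interferon-stimulated list is lowest at -0.51, with PR2VR number 1 at -0.90 and the other 3 arrays between -0.34 and -0.26.

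Cell identity was checked with marker genes. SPI1, a defining factor of myeloid cells, was not among the tested genes, and its 1 probe set read 66.9 and 25.5 in GFP cells and 17.2 to 331 in fusion cells, mostly within the Bacillus range. The U937 list (15 of 18 genes tested, such as the granule protease CTSG and the leukocyte phosphatase PTPRC) had summed signals of 256889 and 265541 in GFP cells and 242180 to 319264 in fusion cells. The summed signals were 4983 and 7264 against 2065 to 10493 for T and NK cells (5 of 14 tested, mainly NKG7), 6513 and 4285 against 5210 to 6177 for B cells (7 of 10, mainly PAX5), and 1885 and 2326 against 1610 to 2168 for epithelium and fibroblasts (5 of 12). For erythroid cells and megakaryocytes (4 of 14 tested) they were 786 and 1082 in GFP cells and 1197 to 1694 in fusion cells, so this list was higher in each fusion array, led by KLF1 with 141 and 32.2 against 250 to 482. Its part in the results was not tested. In bulk RNA of sorted cells, fewer cells of a type and less RNA per cell cannot be told apart.

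The forms were compared to ask whether protease resistance altered the early response. In limma 0 of 13959 genes differed between PR2VR and PRWT at 6 h (0.0%), with 301 at an unadjusted p under 0.05 (2.16%), and 0 with the block (1185 at an unadjusted p under 0.05, 8.49%). RET, a receptor tyrosine kinase, read 769 and 955 in GFP cells, 1459 and 1313 in PRWT cells and 132 and 303 in PR2VR cells. Both PR2VR arrays were below the other 4, and the difference of PR2VR from PRWT was -2.44 ± 0.50 (95% confidence interval -3.53 to -1.35, adjusted p = 1.0). ILK, a kinase of integrin adhesions, read 5071 and 5046 in GFP cells, 5203 and 4477 in PRWT cells and 2191 and 1379.5 in PR2VR cells, a difference of -1.44 ± 0.37. SNX11, an endosomal sorting nexin, read 3813 and 7046 in GFP cells, 14797 and 16307 in PRWT cells and 3857 and 3246 in PR2VR cells (-2.11 ± 0.53), where PRWT and not PR2VR stood away from GFP. RAD52, a repair protein, read 213 and 319 in GFP cells, 203 and 55.9 in PRWT cells and 891 and 739 in PR2VR cells (2.30 ± 0.55), and NLRX1, a mitochondrial regulator of antiviral signalling, read 1111 and 912 in GFP cells, 733 and 428 in PRWT cells and 1849 and 1292 in PR2VR cells (1.36 ± 0.45). CIB2 (-2.14 ± 0.48) and RRS1, of ribosome assembly (-1.39 ± 0.35), were lower in PR2VR. Each of these genes was picked for its small p, and none passed. RET, RAD52 and NLRX1 are uncertain, since another probe set of each differed between the forms the other way, by 0.25, -0.53 and -0.56, while those of SNX11 and CIB2 differed by -0.71 and -0.82. ILK and RRS1 have 1 probe set each.

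As above, genes passing between the forms without 1 PR2VR array are not described here, since the array left is fitted exactly. Their counts stand in the closing section only as a record of how the results depend on the processing. Against GFP, RARA was the gene that passed for PRWT and for PR2VR separately, with the loss of these calls described above (202 and 357 genes at an unadjusted p under 0.05, 1.45% and 2.56%). For genes described above, the differences of the forms from the shared GFP arrays stand side by side. ARID5B differed by 1.76 in PRWT and 2.31 in PR2VR, PIM1 by -1.28 and -1.72, CDKN1A by -1.18 and -1.04 and SOCS1 by -1.95 and -2.37. TMPO, a nuclear lamina protein, read 7749 and 8338 in GFP cells, 6942 and 7580.5 in PRWT cells and 2061 and 3274 in PR2VR cells, so its difference of -1.61 ± 0.40 from GFP was seen in PR2VR and was -0.15 ± 0.40 in PRWT, while TCAF1 differed by -1.38 in PRWT and -0.47 in PR2VR. TMPO is uncertain, since another of its probe sets read 4251 and 5897 in GFP cells and 4894 and 6053 in PR2VR cells (0.12), although 2 others differed by -0.86 and -0.63. TCAF1 is uncertain as well, since another of its probe sets differed by -0.10 in PRWT and -0.44 in PR2VR.

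**Figure D4:**
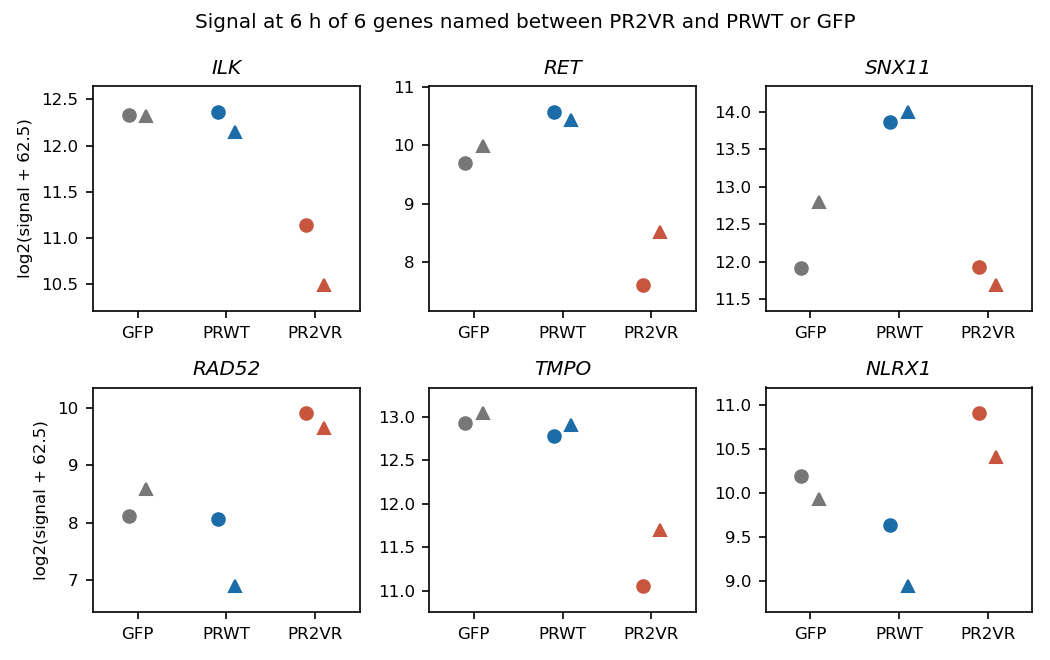
Log2(signal + 62.5) on each of the 6 arrays of 6 h (grey, GFP; blue, PRWT; red, PR2VR; circles, number 1; triangles, number 2) for 6 of the genes named for a small unadjusted p between PR2VR and PRWT or between PR2VR and GFP. They are not the 6 with the smallest p. For ILK, RET and TMPO both PR2VR arrays lie below the other 4, whereas for SNX11 both PRWT arrays lie above the others; none of these genes passed, and other probe sets of RET, RAD52, NLRX1 and TMPO disagree.

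The same contrast at 9 h gives the size of these differences at the second time, without a test at 9 h. At 9 h the GAPDH ratio of 3' to 5' signal was 8.14 to 12.9 on the number 1 arrays and 2.21 to 2.75 on the number 2 arrays. Genes were named by their 6 h values, and the part of that choice in smaller differences at 9 h was not tested. ARID5B differed from GFP by 1.62 at 9 h against 2.04 at 6 h, KLF6 by 1.53 against 1.59, CD36 by 1.30 against 1.35 and IRS2 by 1.51 against 1.23. CDKN1A (-1.33), MS4A4A (-1.65), IDO1 (-1.90) and AQP9 (-2.33) were at least as far below GFP at 9 h. PIM1 (-0.62), TNF (-0.23), NEDD9 (-0.35) and DUSP1 (0.42) were nearer to GFP at 9 h than at 6 h, and PLD1 was at -0.05. The interferon-stimulated list had a median of -0.40 at 9 h. In limma 0 genes passed for the change of the difference from 6 h to 9 h (0.0%), with 106 at an unadjusted p under 0.05 (0.759%), and 0 with the block (434, 3.11%). Genes passing in fits without 1 PR2VR array of 6 h are not described here either. The smallest unadjusted p included C1RL, with 2.06 at 6 h and -0.13 at 9 h (-2.19 ± 0.61), LINC01723 (-2.30 ± 0.67), ZNF850 (1.97 ± 0.65), TRIM65 (1.84 ± 0.61) and the deacetylase gene HDAC7 (2.36 ± 0.87).

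**Figure D5:**
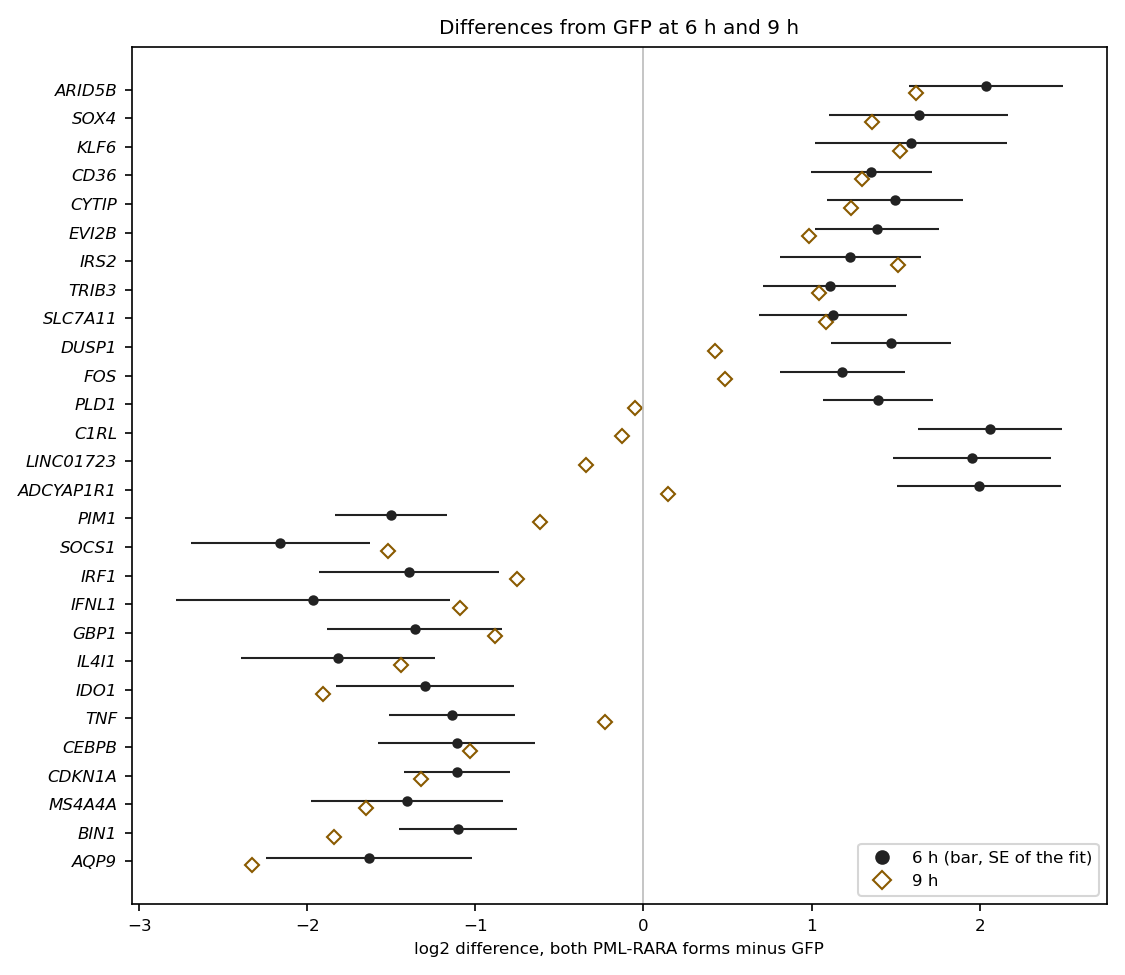
Log2 difference of both PML-RARA forms from GFP at 6 h (black points, with bars of 1 SE of the limma fit) and at 9 h (open diamonds) for 28 named genes. ARID5B, KLF6, CD36 and MS4A4A have similar differences at both times, whereas PLD1, C1RL, LINC01723 and ADCYAP1R1 lie near 0 at 9 h.

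RAP1A, a small GTPase of integrin signalling, fell on 2 of its 4 probe sets when all probe sets were fitted with the block, but neither passed in the same fit without it, and is named after its values were seen. The first of these read 85593 and 104243 in GFP cells, 1652 and 3342 in PRWT cells and 576 and 1617 in PR2VR cells. The second read 42292 and 104446 in GFP cells, 1638 and 4764 in PRWT cells and 843 and 2627 in PR2VR cells. Their differences were -5.90 ± 0.60 and -4.98 ± 0.43 on the log2 scale (adjusted p = 0.00534 and 0.00133 in limma with the block, 0.259 and 0.836 without it), and the other probe sets that passed in that fit were 2 of RARA and 1 of KLF6. The other probe sets of RAP1A overlapped between the groups, one at 20279 and 16657 in GFP cells against 9887 to 22352 in fusion cells and the other at 1059 and 1273 against 604 to 1349. The 4 probe sets of 1 gene thus disagreed, and at 9 h the first probe set read 97618 and 92508 in GFP cells, 2365 and 21434 in PRWT cells and 969 and 15498 in PR2VR cells. What the first pair of probe sets detects was not tested.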

How the data were processed

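RNA was measured on 12 Affymetrix HG-U133 Plus 2.0 arrays, 3 constructs at 2 times with 2 replicate numbers. The deposited values are linear intensity signals, which were made with MAS5 per the submitters' processing notes, and range from 0.5 to 289408.3. From these, log2(signal + 62.5) was computed, 62.5 being the 20th percentile of all values. Of 54613 probe sets that are not controls, 41091 have 1 symbol, 1801 several and 11721 none in the platform annotation. The probe set with the highest mean stood for each of 19775 genes, and 13959 above the 40th percentile of mean signal were tested.

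All 12 arrays entered 1 limma fit (limma 3.58.1, R 4.3.3), which had 1 mean per construct and time, empirical Bayes with a trend and Benjamini-Hochberg adjustment. The fit was tested on simulated data. Same-numbered arrays deviated together (correlations of 0.151 to 0.36 at 6 h and 0.561 to 0.626 at 9 h), so the number was also fitted as a block. An exact permutation test of 4 arrays against 2 cannot give a two-sided p below 0.067, so none is given.

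Genes named are those that passed and, up to 15 per direction, those of smallest unadjusted p with no overlap and a difference of at least 1. To these come 5 per direction for each other comparison, 5 per list, and RARA and PML. The genes and the 29 gene lists and 5 marker lists were chosen with earlier results of these data known, so they support nothing independently, and lists were not tested. The alternatives were the offset, filter, normalization, variance trend, array weights, probe sets, block and arrays fitted.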

Additional observations from a re-analysis of the deposited data

How the results depend on the processing

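Of 111 differences of named genes over 27 alternatives, 109 kept their sign in all. This count says little on robustness. Genes named for having no overlap cannot turn sign when 1 array is left out. The filter, the variance trend and the block on all arrays do not change the difference at 6 h. PML was 0.20, and single omissions gave -0.017 (without PRWT number 2) to 0.419. For RARA in PR2VR against PRWT they gave -1.668 to 0.627, above 0 without PRWT number 1 (0.085 with the replicate block) and without PR2VR number 2 (0.471). The fit with the replicate block on all arrays changed no count of calls in the 5 comparisons. With all probe sets and the block, an alternative chosen after seeing the data, 5 probe sets passed for both forms against GFP, 2 for PRWT and 3 for PR2VR. Single omissions without the block gave 0 to 1 genes for PRWT against GFP (0 without either GFP array and without PRWT number 1). They gave 0 to 35 for PR2VR against GFP (0 without either GFP array and without PR2VR number 1, 35 without PR2VR number 2) and 0 to 35 for PR2VR against PRWT. With the block, leaving out PR2VR number 1 or number 2 gave 18 or 376 genes for both forms against GFP, 137 or 882 for PR2VR against GFP and 244 or 561 for PR2VR against PRWT. The other omissions gave 1, 1 and 0, and the change from 6 h to 9 h had 0 to 30. The cause was not tested. Each single omission leaves 1 array in its group, and that array is then fitted exactly. The counts from single omissions therefore show only how the number of calls moved, and are not evidence for the genes behind them. Each group had 2 arrays, and signals within the range of the Bacillus controls carry little information on size.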
